A study of Mus musculus with 24 samples.

Results

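Pericytes and other mural cells were examined in single-nucleus RNA sequencing of the mouse brain. They were selected on UMIs (unique molecular identifiers, which count each captured RNA molecule once) of 5 mural marker genes, Vtn, Pdgfrb, Atp13a5, Notch3 and Rgs5. A nucleus was called mural when it held at least 5 UMIs of these genes from at least 2 of them, at most 1 UMI of the endothelial genes Flt1 and Cldn5 together, at most 1 of the fibroblast genes Col1a2, Dcn and Ranbp3l, none of the neuronal gene Rbfox3, none of the astrocyte gene Aqp4, and at most 1 of the oligodendrocyte genes Mog, Mag and Mobp. This gave 185 mural nuclei of the 204925 nuclei kept, which had over 500 but under 7000 genes detected and under 20% of their UMIs from mitochondrial genes. Since measured UMIs chose the nuclei, levels of all 15 of these genes are given as descriptions, with no test.

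Nuclei came from 6 mutant mice, Pdgfb ret/ret, and 6 control mice, Pdgfb ret/wt, of the strain B6.Pdgfbtm3Cbet. Each mouse gave 1 library of the deep brain (pallidum, thalamus and hypothalamus, midbrain and pons), the region prone to vessel calcification, and 1 of the cortex with the hippocampus, which is free of it, 24 libraries in all. The ret allele lacks the motif that retains PDGF-B outside the cell that secretes it. Controls carried 1 ret allele too, so no group was wild type, and every cell of an animal carried its alleles, not only those of vessels. Ages ran from 4 months 7 days to 5 months 18 days in both genotypes, and all mice were female except control mouse 6. Libraries are named below by genotype, region and mouse number.

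Mural cells lie on the outer wall of vessels. Pericytes cover capillaries, embedded in the basement membrane they share with endothelial cells, and smooth muscle cells ring arteries and arterioles and contract them. Endothelial cells secrete PDGF-B, which is held near the vessel by its retention motif and draws mural cells that carry its receptor, PDGFRB, along the growing vessel. Loss of the motif is known to leave brain capillaries with fewer pericytes.

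The libraries held 23625232 to 96459036 UMIs. Kept nuclei of the deep brain had a median of 4430 to 7314 UMIs per library in controls and 3547 to 5632 in mutants. Cortical libraries fell into 7 with a median of 804 to 1160 UMIs and 5 with 4597 to 8054. Of 203940 distinct barcodes, 14.8% were listed in more than 1 library. The barcodes of 59 mural nuclei recurred in another library, where 0 of them was a mural nucleus. The targeted gene could not check the labels, since counts of Pdgfb from tags at the 5′ end of transcripts do not read the deleted motif. Pdgfb had 164 CPM (UMIs of a gene per 1000000 UMIs) in endothelial nuclei of control deep brains and 162 in those of mutants.

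The mural label was checked first against genes outside the rule. Mural nuclei had a median of 1444 UMIs (range 630 to 18437) and a median of 18 marker UMIs (range 5 to 95). All 5 marker genes were seen in 88 of the 185 nuclei, and 152 nuclei held 10 or more marker UMIs. Of 30 further pericyte genes on a list, all 30 were detected in the 161 deep brain mural nuclei and all 30 were more than 2-fold above their level in the other kept nuclei of the deep brain. Their summed level was 12154 CPM in mural nuclei, 438 in the other nuclei, 2984 in endothelial and 2425 in fibroblast nuclei. Those 2 vascular classes were set by like limits on their own genes and held 505 and 935 nuclei. Endothelial nuclei were allowed at most 1 UMI of the 5 mural marker genes together. Fibroblast nuclei were allowed at most 1 of Atp13a5, Notch3 and Rgs5 together, with no limit on Vtn or Pdgfrb.

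Nuclei near the threshold differed from the rest. The share of deep brain nuclei with at least 1 UMI of 10 pericyte genes outside the rule (Abcc9, Kcnj8, Higd1b, Carmn, Slc38a11, Art3, Ano1, P2ry14, Cox4i2 and Anpep) served as the measure. Of nuclei with 4 marker UMIs, just outside the rule, 4 of 25 had such a UMI. Of those with 5, just inside, 2 of 15 did, with a median of 4127 UMIs per nucleus. With 7 or more marker UMIs it was 137 of 142 (96.5%), with a median of 1417 UMIs. The nuclei with exactly 5 marker UMIs therefore carried the outside genes about as rarely as those just outside the rule, and a stricter set with at least 7 marker UMIs and at least 1 outside UMI held 113 control and 24 mutant nuclei of the deep brain, in place of 129 and 32.

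**Figure D1:**
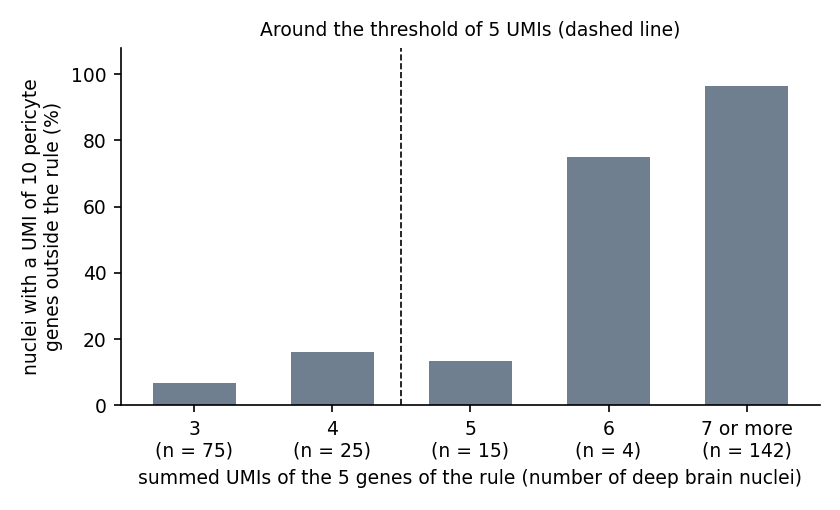
Deep brain nuclei that passed the limits on other cell classes, by their UMIs of the 5 marker genes (x axis), with the percent that held at least 1 UMI of 10 pericyte genes outside the rule (y axis). The percent is low at 3 to 5 marker UMIs (2 of 15 nuclei at 5) and reaches 96.5% at 7 or more.

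RNA of other cell classes was also present. The 10 astrocyte genes listed, the lead being Gpc5 (a glypican) and Slc1a2 (a glutamate transporter), summed to 5007 CPM in deep brain mural nuclei and 1977 in other nuclei. Of their 1838 UMIs in mural nuclei, 1695 lay in 19 nuclei that held 10 or more of them, which had a median of 5 marker UMIs and 4279 UMIs in all. These were 13 of the 129 control and 6 of the 32 mutant mural nuclei. The astrocyte list summed to 4807 CPM in control and 5720 in mutant mural nuclei. The neuronal list, led by Meg3, Dlg2 and Nrg3, summed to 5805 CPM against 18377 in other nuclei, and the microglial list reached 73.6 CPM against 225. The endothelial list, led by Emcn, Itm2a and Slco1a4, stood at 158 CPM against 18053 in endothelial nuclei, and the fibroblast list at 558 against 5311 in fibroblast nuclei. Per library with at least 5 mural nuclei, the astrocyte list ranged from 389.5 to 12199 CPM in controls and from 3023 to 9014 in mutants, so the genotypes overlapped. The part of this RNA in the genotype results was not tested, and the mural, contractile and other mural shares and the ratio to endothelial nuclei are also given with the stricter set.

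In the deep brain mural nuclei, Vtn (vitronectin, an adhesive matrix protein) had 2866 CPM, against 6.62 in other nuclei, 5.15 in endothelial and 870 in fibroblast nuclei. Pdgfrb, the PDGF-B receptor, had 1632 CPM and 254 in fibroblasts. Atp13a5, a P5-type transport ATPase used as a marker of brain pericytes, had 3143 CPM and 5.52 in fibroblasts. Vtn and Pdgfrb, which the fibroblast rule did not limit, were thus shared in part with fibroblasts. The low fibroblast levels of Atp13a5, Notch3 and Rgs5 and the low endothelial level of Vtn were set by the limits that defined those classes. Notch3, the Notch receptor of mural cells, stood at 725 CPM against 2.97 in fibroblasts, and Rgs5, a regulator of G protein signalling, at 1297 against 1.70. In the 20 cortical control nuclei the levels were 6134 CPM for Vtn, 2581 for Pdgfrb, 3292 for Atp13a5, 1122 for Notch3 and 711 for Rgs5. These cortical values come almost wholly from 1 mouse, which gave 19 of the 20 nuclei.

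The genes outside the rule with the largest ratio of mural to other nuclei included Kcnj8, Higd1b, Abcc9, Tbx3os1, Carmn, Ndufa4l2, Slc38a11, Tbx2, Morrbid, Enpep and Pla2r1. Kcnj8, Higd1b and Abcc9 stood 1345 to 1369 times above the other nuclei. Kcnj8 (chr6:142564837-142571614, minus strand, GRCm38) and Abcc9 (chr6:142587862-142702315, minus strand) encode the pore and the sulphonylurea receptor subunit of one ATP-sensitive potassium channel and lie side by side. Abcc9 reached 1185 CPM in mural nuclei and 0.881 in the others, and had a UMI in 68.3% of mural nuclei (median 1501 UMIs) against 0.329% of other nuclei, whose libraries had medians of at least 3547 UMIs. Kcnj8 had 338 CPM against 0.247.

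Enpep, a membrane peptidase of the angiotensin pathway, had 286 CPM against 1.202 in other nuclei. Higd1b, a small mitochondrial membrane protein, had 316 CPM and was at 0 in endothelial and fibroblast nuclei. Carmn, a long noncoding RNA of vascular smooth muscle, reached 640 CPM against 96.8 in fibroblasts. Slc38a11, a putative amino acid transporter, had 594 CPM against 2.12. Among control libraries of the deep brain, Abcc9 ran from 996 to 2149 CPM with a median of 1216, and in the 3 mutant libraries with at least 5 mural nuclei it was 1239 (mutant 1), 938 (mutant 4) and 1064 (mutant 5). The 2 ranges overlapped.

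Among genes with at least 50 UMIs in the 24 cortical mural nuclei, the same ratio was led by Slc6a20a, Igfbp7, Ebf1, Eps8 and Lama2. These were also abundant in the deep brain mural nuclei. The leading genes of the deep brain had fewer UMIs in the cortex but larger ratios (Abcc9 34 UMIs and 1577-fold, Slc6a20a 58 UMIs and 103-fold). Gpc5, the first gene of the astrocyte list, was also among the leading genes of the cortex, and 2 of the 20 control nuclei carried it.

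**Figure D2:**
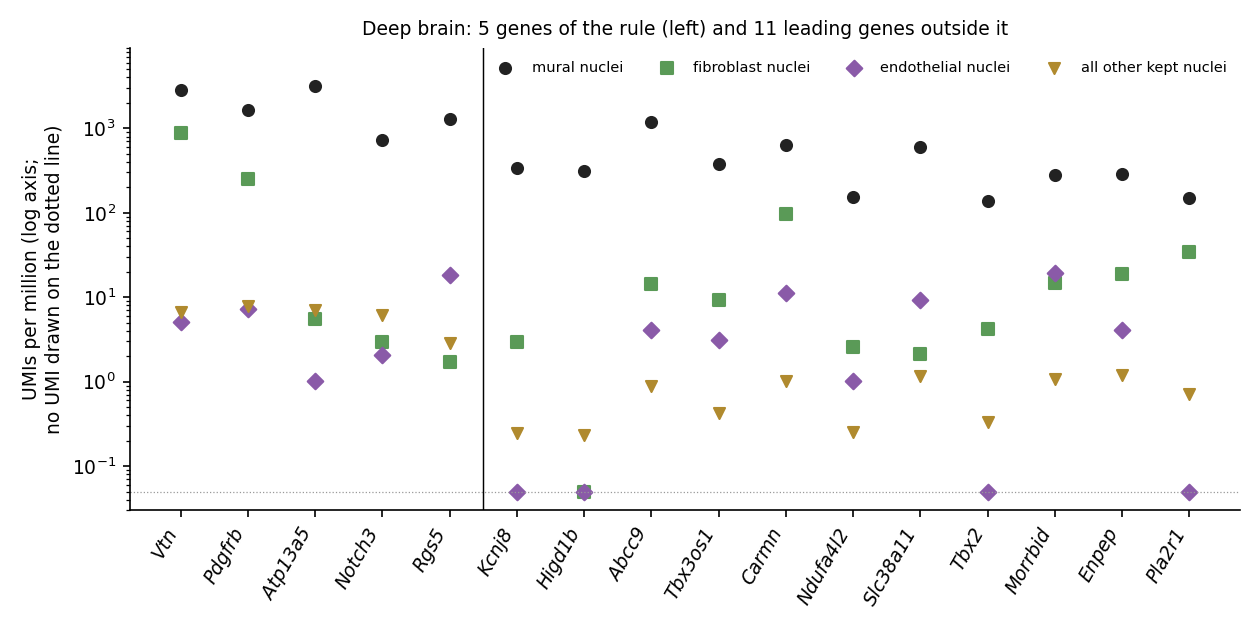
Levels of the 5 marker genes (left of the line) and of 11 leading genes outside the rule in mural, fibroblast, endothelial and all other kept nuclei of the deep brain, in CPM on a log axis, with levels of 0 drawn on the dotted line. Abcc9 is at 1185 CPM in mural nuclei and at 0.881 in the other nuclei. The class rules limited all 5 marker genes in endothelial nuclei, and Atp13a5, Notch3 and Rgs5 in fibroblast nuclei.

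Of the genes with roles in mural cell signalling, Notch1 (177 CPM against 9.07 in other nuclei) and the Notch target genes Hey2 (142 against 3.32) and Heyl (112 against 1.30) stood above the other nuclei. Jag1, a Notch ligand, had 92.6 CPM against 4.28. The Notch list did not set mural nuclei apart from other vascular nuclei, with sums of 1757 CPM in mural, 1625 in endothelial and 1655 in fibroblast nuclei. Pdgfra, the receptor of oligodendrocyte precursors and fibroblasts, was at 54.5 CPM, below the 257 of fibroblasts. Pdgfb itself had 0 UMIs in the mural nuclei and 163 CPM in endothelial nuclei of the deep brain. Bmp5, a BMP ligand, had 150 CPM against 2.60 in other nuclei and 188 in fibroblasts.

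On the list of 26 genes for signals between mural cells and the vessel, 14 were more than 2-fold above the other nuclei, and its sum was 4456 CPM in mural, 1129 in other and 5519 in endothelial nuclei. Ednra, the endothelin receptor A, had 267 CPM against 10.3 in endothelial nuclei. Igfbp7, a secreted protein of vessel walls, had 1212 CPM, and 887 in endothelial nuclei. Il34, a ligand of the CSF1 receptor of microglia, had 286 CPM against 20.1 in other nuclei and 3.09 in endothelial nuclei. Among matrix genes, Itga1 (an integrin subunit for collagen and laminin) stood at 814.5 CPM, Lama2 (a laminin chain) at 893.5 and Col4a1 (collagen IV) at 373, against 4.90, 90.3 and 36.2 in other nuclei, and Lama2 was higher still in fibroblasts, at 1367. On the matrix list 31 of 40 genes were more than 2-fold above the other nuclei, but its sum was near that of the vascular classes. It was 7908 CPM in mural, 7657 in endothelial and 9982 in fibroblast nuclei. The share of all genes more than 2-fold above the other nuclei is not given here.

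For transport, Slc6a20a, a proline transporter, had 1155 CPM against 14.9 in other nuclei and 2377 in fibroblasts. Mural nuclei were not set apart by phosphate genes of familial brain calcification: Xpr1, a phosphate exporter, had 226 CPM against 166, and Slc20a2, a phosphate importer, 144 against 99.4. Mgp, an inhibitor of calcification in vessel walls, had 103.5 CPM, below the 393 of fibroblasts. Of the calcification and phosphate list, 6 of 26 genes were more than 2-fold above the other nuclei.

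Fewer mural nuclei were recovered from mutant deep brains. The 6 control libraries gave 19, 22, 20, 18, 27 and 23 mural nuclei for mice 1 to 6, which is 129 of 60354 nuclei, and the mutant libraries 6, 3, 4, 10, 8 and 1, which is 32 of 64604. As a share of kept nuclei, controls ran from 0.202% to 0.239% with a median of 0.205%, and mutants from 0.0092% to 0.0837% with a median of 0.0495%. Every mutant lay below every control. The means were 0.214% ± 0.0171 (SD, n = 6) in controls and 0.0485% ± 0.0274 (SD, n = 6) in mutants, a difference of -0.166 percentage points (4.41-fold), and the two-sided exact permutation test gave p = 0.0022, the smallest that 6 against 6 libraries allow. With the stricter set the difference was -0.151 percentage points (5.16-fold), with the same p. With at least 3 marker UMIs it was -0.157 points (2.18-fold).

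A definition that used none of the 5 marker genes also gave a lower share in mutants. Nuclei with at least 3 UMIs of the 10 outside pericyte genes from at least 2 of them numbered 143 in controls and 61 in mutants, which put the mutant share -0.143 points from that of controls (2.52-fold, p = 0.0022, exact permutation test). Of these nuclei 113 in controls and 22 in mutants were also mural by the marker genes, and the others, 30 and 39, were not fewer in mutants. That definition was added after seeing the data.

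No such difference was called for other vascular nuclei. Endothelial nuclei of the deep brain numbered 188 in controls and 216 in mutants, and their share was 0.307% and 0.337% of kept nuclei (difference 0.0300 points, exact permutation test, p = 0.604). Fibroblast nuclei numbered 335 and 399 (0.563% and 0.623%, exact permutation test, p = 0.429). Per 100 endothelial nuclei, controls had 45.8 to 136 mural nuclei with a median of 72.6, and mutants 5.56 to 24.4 with a median of 13.5. The difference was -63.6 per 100 (77.9 ± 31.3 against 14.3 ± 8.16, SD, n = 6 each, exact permutation test, p = 0.0022), and -58.2 with the stricter set. Kept nuclei of mutants had fewer UMIs by the library medians, 4927 against 5902 on average (exact permutation test, p = 0.123), and with every nucleus thinned to 1000 UMIs, which left out 1013 shallower control and 858 mutant nuclei, and called mural from 2 marker UMIs, the mural share (169 and 109 nuclei) differed by -0.114 points (1.67-fold, 0.284% in controls and 0.171% in mutants, p = 0.0022, exact permutation test). Thinning came before the limits on other cell classes were applied, so these limits were looser too. The thinned nuclei were not checked against outside genes. Of unthinned deep brain nuclei with exactly 3 marker UMIs, 5 of 75 held a UMI of the outside pericyte genes. Each library is a share of recovered nuclei, so a lower share is not a count of cells in the tissue.

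**Figure D3:**
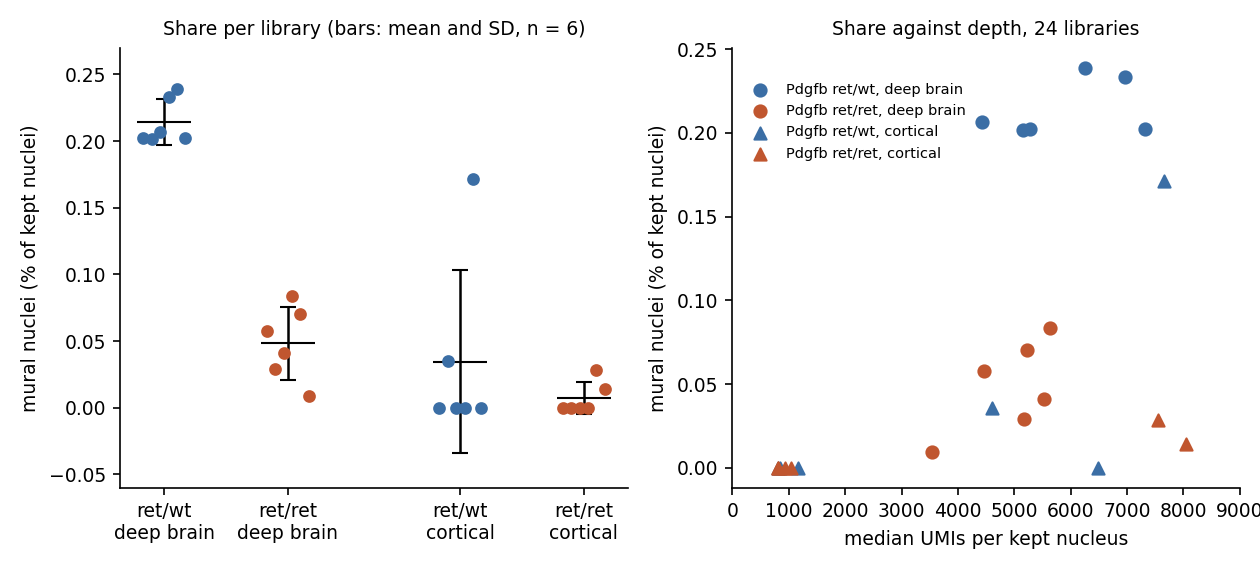
Mural nuclei as a percent of kept nuclei (y axes) in each library (points), by genotype and region with the mean and SD of 6 libraries (left), and against the median UMIs per kept nucleus of the library (right, circles deep brain, triangles cortex, blue ret/wt, red ret/ret). In the deep brain all 6 controls lie between 0.202% and 0.239% and all 6 mutants at 0.0837% or less, while in the cortex control 5 stands alone at 0.171%.

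In the cortex few mural nuclei were recovered. Control libraries 1 to 6 gave 0, 1, 0, 0, 19 and 0, and mutant libraries 0, 0, 0, 0, 3 and 1. The 7 libraries with low depth had medians of 804 to 1160 UMIs and held 0 mural nuclei among 46257 kept nuclei, which allows a share of up to 0.00649% of nuclei that meet the rule, for counting error only. The 19 mural nuclei of control 5, a deeper library, had a median of 1071 UMIs. The part of depth in the 0 was not tested. In the 5 deeper libraries it was 20 of 16232 nuclei in 3 controls and 4 of 17478 in 2 mutants, with shares of 0 to 0.171% and 0.0144% to 0.0284% that overlapped. Over all 12 cortical libraries the shares were 0.0345% and 0.00715% (difference -0.0273 points, exact permutation test, p = 0.576), and without control mouse 5 the difference was 5.56e-05 points. With every nucleus thinned to 1000 UMIs and called from 2 marker UMIs, which left out 12227 shallower control and 17840 mutant nuclei, 34 control and 21 mutant nuclei were called, 8 of them in the 7 libraries of low depth, and the cortical share differed by -0.119 points (p = 0.00649, exact permutation test). Depth, marker threshold and the limits on other cell classes changed together here, so their parts in the cortical value cannot be told apart. Within the deeper libraries, 3 against 2 are too few to reach 0.05 in an exact test.

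Within mice the deep brain share was above the cortical share in 11 of 12, by 0.111 points on average (exact permutation test over sign changes, p = 0.000977, the smallest possible being 0.000488). The mean difference was 0.180 points in controls and 0.0414 in mutants, and these differed by -0.138 points (exact permutation test, p = 0.00433). Only 2 control and 2 mutant cortical libraries held a mural nucleus, so in the other mice the region difference was the deep brain share. The test thus largely repeats that of the deep brain share. As a fold of means the genotype difference was 4.41 in the deep brain and 4.83 in the cortex, where it rested on control 5. Cortical depth differs from that of the deep brain in most mice. Thinned to 1000 UMIs, the deep brain share was again higher in 11 of 12 mice, by 0.123 points (exact permutation test, p = 0.000977), but the region difference was 0.120 points in controls and 0.125 in mutants, and these differed by 0.00509 points (exact permutation test, p = 0.905). This too came with the lower threshold of 2 marker UMIs, which called 109 mutant nuclei of the deep brain in place of 32, so the parts of depth and threshold cannot be told apart.

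In the 3 mutant deep brain libraries with at least 5 mural nuclei, a larger share of these nuclei held smooth muscle contractile RNA than in controls. Contractile nuclei were those with at least 2 summed UMIs of Acta2 (smooth muscle actin), Tagln (transgelin), Myh11 (smooth muscle myosin), Cnn1 (calponin), Lmod1 (leiomodin) and Myocd (their transcriptional coactivator), none of which is in the rule. This is a range of a score and not a cell type, and 15 further nuclei held exactly 1 such UMI. Controls 1 to 6 had 5.26%, 4.55%, 10%, 5.56%, 7.41% and 0% contractile nuclei. Mutants 1, 4 and 5, which had at least 5 mural nuclei, had 50%, 30% and 25%. Each of these mutants lay above every control. Mutants 2, 3 and 6 had 2 of 3, 1 of 4 and 0 of 1 mural nuclei contractile and were left out of the means and test below.

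The mean was 35.0% ± 13.2 (SD, n = 3) in mutants and 5.46% ± 3.32 (SD, n = 6) in controls, a difference of 29.5 percentage points (two-sided exact permutation test, p = 0.0238, the smallest that 3 against 6 libraries allow). Pooled, 11 of 32 mutant nuclei were contractile (34.4%, 95% exact binomial interval 18.6 to 53.2) and 7 of 129 control nuclei (5.43%, 2.21 to 10.9), intervals that cover counting error only. Leaving out any 1 of the 3 mutants gave differences of 22.0 to 34.5 points with p = 0.0714 in the exact permutation test, the smallest that 2 against 6 libraries allow, so the call could not be kept there whatever the values. With at least 3 marker UMIs the difference fell to 13.0 points (exact permutation test, p = 0.0476), and with at least 1 contractile UMI in place of 2 it was 40.0 points (exact permutation test, p = 0.0238). The stricter set differed by 39.4 points, and nuclei thinned to 1000 UMIs, counted with at least 1 contractile UMI, by 29.95 points (exact permutation test, p = 0.0238 for both), the latter over the 110 control and 30 mutant mural nuclei with at least 1000 UMIs. Depth moved with genotype here, since the median mural nucleus had 2078 ± 539 UMIs in mutants and 1450 ± 158 in controls (SD, n = 6 each, exact permutation test, p = 0.00433), although the stricter set gave a difference of 620 UMIs with p = 0.130 (exact permutation test). The mutant medians rest on 1 to 10 nuclei per library, and the highest, 2780, is the only nucleus of mutant 6. With means in place of medians the difference was not called, as given below.

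No difference was called in contractile mural nuclei when they were counted against all kept nuclei. They made up 0.0169% of mutant and 0.0119% of control nuclei (difference 0.00505 points, exact permutation test, p = 0.366). The other mural nuclei made up 0.0316% ± 0.0208 and 0.202% ± 0.0152 (SD, n = 6 each), a difference of -0.171 points with no overlap (exact permutation test, p = 0.0022). With the stricter set these differences were 0.00868 and -0.160 points (exact permutation test, p = 0.149 and 0.0022). Both counts were added after seeing the data. The lower mural share was therefore found in the nuclei with fewer than 2 contractile UMIs, and no difference was called in contractile nuclei, which were few.

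**Figure D4:**
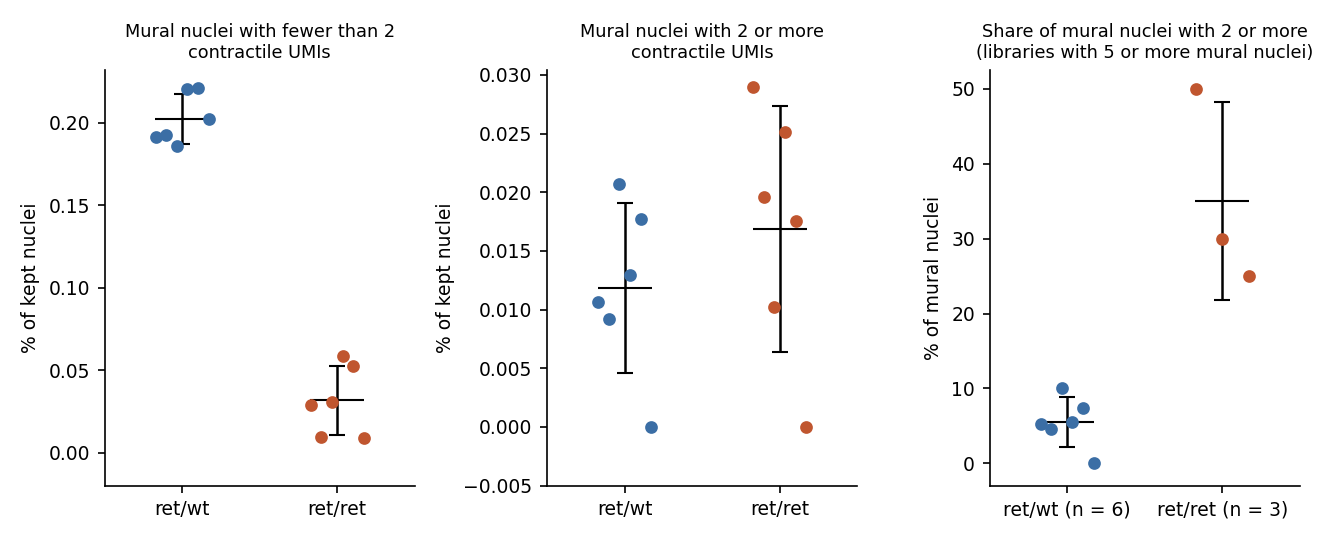
Deep brain libraries (points) with the mean and SD: mural nuclei with fewer than 2 UMIs of the 6 contractile genes (left) and with 2 or more (middle), both as a percent of kept nuclei, and the latter as a percent of mural nuclei in libraries with at least 5 of them (right). The genotypes separate in the left panel (means 0.202% and 0.0316%), overlap in the middle, and separate on the right, with mutants at 25% to 50% and controls at 0% to 10%.

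The 18 contractile and 143 other deep brain mural nuclei differed in genes that did not define the split, described here without a test since the same nuclei were used. Of the 18, 11 were from mutants, and of the 143, 21, so contractile RNA and genotype cannot be told apart in these values. Acta2 and Tagln, which were among the genes that defined it, stood at 990 and 637 CPM in contractile nuclei. They were seen in 55.6% and 27.8% of these nuclei, and Myh11 in 88.9%. The most contractile UMIs in 1 nucleus was 60, so the sums are not typical of each nucleus. Outside the split, Tpm1 (tropomyosin) had 1157 against 293 CPM, Myl9 (myosin light chain) 336 against 104, Mylk (myosin light chain kinase) 503 against 198 and Pde3a, a phosphodiesterase of smooth muscle, 1157 against 472. Prkg1, a cGMP-dependent kinase, was near level at 2432 against 2394. Of the 22 contractile genes on the list outside the split, 21 were higher in contractile nuclei and 1 was at 0 in both. Pericyte genes were mixed, 19 of 30 on the list being higher and 11 lower. Abcc9 had 570 against 1304 CPM, while Art3, an ADP-ribosyltransferase family member, had 704.5 against 361 and Carmn 721 against 624. The marker genes were mixed too, with Atp13a5 at 1711 against 3421, Rgs5 at 1761 against 1207 and Vtn at 3523 against 2738. Of 25 solute carriers and ATPases 21 were lower, among them Slc6a20a, 554 against 1272. Matrix genes leaned higher, 28 of 40 with 11 lower, and Notch genes lower, 9 of 14 with 3 higher. The share of all genes higher in contractile nuclei is not given here, so these list counts have no background beside them. Pdgfrb (1644 and 1629 CPM) was near equal, and Notch3 was at 1141 against 644. Kcnj8 had near equal sums (336 and 338 CPM), but a UMI in 16.7% of contractile and 42.0% of the other nuclei. Timp3, an inhibitor of matrix metalloproteinases, had 856 against 234 CPM. The contractile nuclei had a median of 2448 UMIs and the others 1425.

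Within mural nuclei of the deep brain no gene passed the test of genotype. UMIs were summed over the mural nuclei of each library, and the 3 mutant and 6 control libraries with at least 5 such nuclei were compared with the quasi-likelihood test of edgeR over 720 genes. At an adjusted p below 0.05 (Benjamini-Hochberg) 0 genes were called, which is 0% of those tested, 56 had an unadjusted p below 0.05, and DESeq2 called 0 with 44. The median log2 fold change was -0.08, with 406 of 720 genes below 0. The sums hold few UMIs, so the absence of a call does not show that levels were equal.

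Among the lists, 17 of the 30 pericyte genes were tested, with 8 below 0, a median log2 fold change of 0.10 and 0 called. Of 8 contractile genes tested the median was 0.05, of 11 matrix genes 0.13, of 7 solute carriers and ATPases -0.54 and of 6 genes for signals to the vessel -0.23, with 0 called in each. The PDGF list had 1 gene tested, the Notch list 2, the TGF-beta and BMP list 2, the interferon and inflammation list 2 and the calcification list 1, with 0 called, and no gene of the hypoxia and immediate early list had enough UMIs.

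The gene with the smallest p was Timp3. Its level was 83.0, 175, 194, 197, 243 and 269 CPM in the 6 controls and 826, 626 and 501 CPM in mutants 1, 4 and 5. The log2 fold change was 1.66 ± 0.34 (SE), with an adjusted p of 0.267 (edgeR, Benjamini-Hochberg), which does not pass. Contractile nuclei, which were more frequent in these mutants, carried more Timp3, but 11 of the 18 were themselves from mutants. Contractile RNA and genotype cannot be told apart here, and the part of contractile nuclei in the difference was not tested. Abcc9 (-0.39 ± 0.36), Dlc1 (-0.57 ± 0.35) and Ebf1 (-0.59 ± 0.36), all abundant mural genes, had adjusted p from 0.786 to 0.887 (edgeR). With at least 3 marker UMIs, which took in 175 control and 86 mutant nuclei, they were at -1.70, -1.61 and -1.41 and were called lower, with adjusted p of 0.0448, 0.0177 and 0.0334 (edgeR). The added nuclei were 31 control and 44 mutant with 3 marker UMIs, and 15 and 10 with 4. Only 5 of 75 and 4 of 25 of them held a UMI of the 10 outside pericyte genes, which include Abcc9. The mutant sums thus took in a larger part of such nuclei, whose part in these calls was not tested. The median mitochondrial share was 0.264% of UMIs in mutant and 0.144% in control mural nuclei, and mt-Atp8 had a log2 fold change of 1.91 (adjusted p = 0.294, edgeR).

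No designed test of genes was possible for cortical mural nuclei, for region or for an interaction. Only control mouse 5 had at least 5 mural nuclei in the cortex.

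The mural genes were also read over all kept nuclei of a library, a fit added after seeing the data. In such sums fewer cells of a type, less RNA per cell and RNA in nuclei not called mural cannot be told apart. Abcc9 stood at 0.881 CPM in the deep brain nuclei not called mural, and their part in the differences was not tested. Abcc9 was lower in mutants of the deep brain, from 1.08 to 2.76 CPM (median 1.87) in controls to 0.508 to 1.01 CPM (median 0.714) in mutants. All 6 mutants lay below all 6 controls. The log2 fold change was -1.43 ± 0.22 (SE), with an adjusted p of 0.0112 (edgeR, Benjamini-Hochberg). In this fit 322 of 21025 genes were called (1.53%), 131 of them lower (0.623%) and 191 higher (0.908%). The count of 322 moved to between 89 and 444 with 1 library left out, and was higher with DESeq2, as given below.

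Heyl, which encodes a repressor induced by Notch signalling, ran from 1.48 to 1.99 CPM (median 1.54) in controls and from 0.795 to 1.41 CPM (median 1.00) in mutants. Its log2 fold change was -0.70 ± 0.13 (SE) with an adjusted p of 0.0239 (edgeR). It passed in 13 of 17 alternatives, and its adjusted p without 1 library reached 0.0652 (without control 5, edgeR). Nuclei not called mural also held Heyl, as given above. On the list of 30 pericyte genes, 29 were tested, 22 lay below 0 and 2 were called lower, Abcc9 and Heyl, with 0 called higher, and the median was -0.16 against -0.0032 over all genes. The leading genes were chosen on the 161 mural nuclei of the deep brain, 129 of them from controls, so no count or median over them is given. Among them Tbx3os1, to which the same limit applies, was at -0.61 ± 0.14 (adjusted p = 0.0453, edgeR). It kept its call in 3 of 17 alternatives, and with 1 library left out its adjusted p ran from 0.0465 to 0.09999 (edgeR). Tbx3os1 is an antisense gene whose reads cannot be fully told from those of its neighbours.

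The channel partner of Abcc9, Kcnj8, ran from 0.129 to 0.816 CPM (median 0.545) in controls and from 0.0635 to 0.332 CPM (median 0.213) in mutants. The groups overlapped because of control 4, and the log2 fold change of -1.33 ± 0.37 did not pass (adjusted p = 0.0956, edgeR). DESeq2 gave Kcnj8 an adjusted p of 0.0238, and edgeR without control 4 gave 0.0399. Higd1b (-0.93 ± 0.33, adjusted p = 0.193) did not pass either in edgeR. P2ry14 (-0.03 ± 0.07) and Cox4i2 (-0.01 ± 0.20) lay near 0. The genes of the rule are given without a test. Atp13a5 (median 8.33 CPM in controls and 8.21 in mutants) and Notch3 (6.48 and 6.32) were near level. Vtn ran from 5.27 to 10.2 CPM in controls and from 3.59 to 9.32 in mutants, Pdgfrb from 4.73 to 14.1 and from 3.77 to 9.99, and both overlapped. Rgs5 ran from 2.43 to 6.70 CPM in controls and from 0.873 to 2.38 in mutants, and its groups did not overlap.

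**Figure D5:**
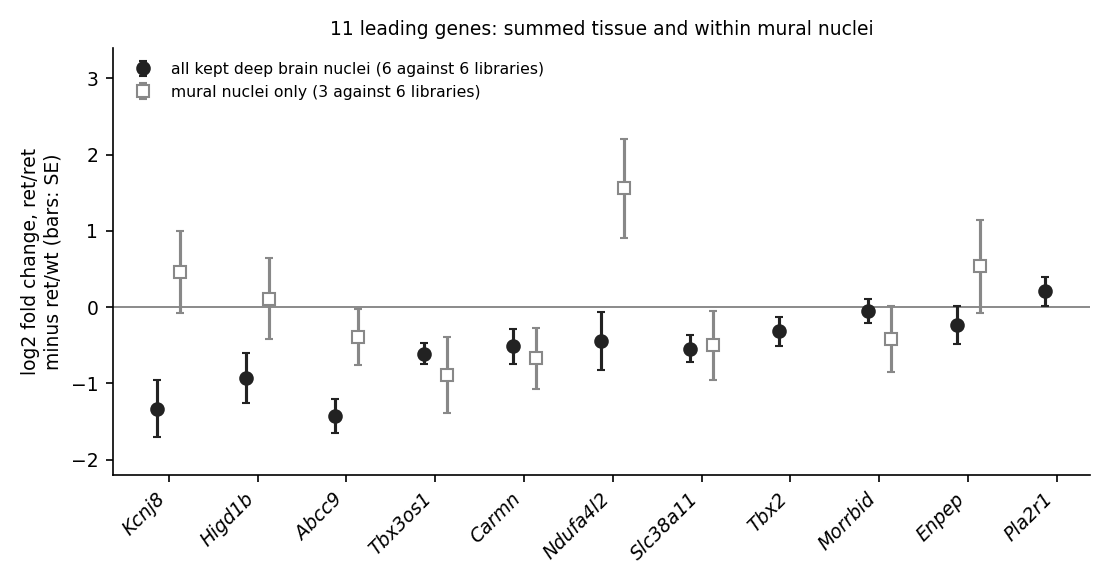
Log2 fold change (ret/ret minus ret/wt, y axis) with its standard error for 11 leading mural genes by edgeR, over all kept nuclei of the deep brain (filled circles, 6 against 6 libraries) and over mural nuclei alone (open squares, 3 against 6), where Tbx2 and Pla2r1 were not tested. Abcc9 is at -1.43 over all kept nuclei and at -0.39 within mural nuclei. The genes were chosen on mural nuclei that came mostly from controls.

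Of the contractile genes, 1 was called over all kept nuclei. Acta2 ran from 0.175 to 3.11 CPM (median 0.482) in controls and from 0.431 to 2.00 CPM (median 1.04) in mutants, with a log2 fold change of 0.28 ± 0.62 (adjusted p = 0.905, edgeR). Tagln (0.23 ± 0.39) and Myh11 (0.12 ± 0.44) did not pass either. Of 24 genes of the contractile list tested, 1 was called lower, Olfr78, an odorant receptor gene also used as a marker of smooth muscle (-2.76 ± 0.58, adjusted p = 0.0367, edgeR), and the median was 0.02. These list counts stand beside 0.623% called lower and 0.908% called higher over all genes tested. On the Notch list Heyl and Hes1 were called lower of 14 tested, and on the PDGF, TGF-beta and BMP, vessel signal, solute carrier and hypoxia lists 0 were called of 16, 27, 26, 25 and 25. The calcification list had 1 higher (Sp7) and 1 lower (Alpl) of 23, the matrix list 1 lower (Col5a1) of 40, and the interferon and inflammation list 5 higher of 25, among them C4b, Cd274, H2-K1 and Nlrc5, genes that other brain cells also express.

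In the cortex the same fit called 50 of 18156 genes (0.275%), 7 of them lower (0.0386%) and 43 higher (0.237%), and 0 of the 20 pericyte genes tested. The count of 50 moved to between 11 and 109 with 1 library left out, and was higher with the replicate block, as given below. Slc38a11 ran from 0.391 to 1.07 CPM (median 0.714) in controls and from 0.0983 to 0.494 CPM (median 0.263) in mutants, with a log2 fold change of -1.30 ± 0.33 and an adjusted p of 0.157 (edgeR), while DESeq2 gave 0.0286. Carmn was at -0.81 ± 0.23 (adjusted p = 0.207, edgeR). The median of the 20 genes was -0.17 against -0.0075 over all genes. Abcc9 and Kcnj8 had too few UMIs in the cortex for the test. Over all kept cortical nuclei Abcc9 ran from 0.261 to 3.45 CPM (median 0.957) in controls and from 0.0819 to 0.308 CPM (median 0.152) in mutants, and the groups overlapped in 1 control and 2 mutants.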

How the data were processed

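Frozen tissue of both regions gave 24 single-nucleus libraries (10x Genomics, 5′ end). Per the labels and methods, the authors aligned reads with Cell Ranger 5.0.1, introns included, to mm10 and deposited raw UMI counts per gene and barcode, with no normalization. Introns raise counts of long genes.

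Groups came from the labels. Nuclei were filtered as described above, no doublet caller was run, and the limits on other cell classes stood in its place. UMIs were summed per library. Genes were tested with edgeR 4.0.16 (R 4.3.3, limma 3.58.1; filterByExpr with a minimum count of 10, TMM, Benjamini-Hochberg), with DESeq2 1.42.0 as an alternative, after testing on simulated data. Shares were compared by exact permutation tests in Python 3.11.15 with scipy 1.17.1, pandas 2.3.3 and numpy 2.4.6. Named genes were those of the rule, the 12 with the largest mural ratio among genes with at least 50 mural UMIs, those past a test, the 5 most abundant of each pathway list and the 3 of each other-class list. Jag1, Pdgfra, Pdgfb, Il34, Col4a1, mt-Atp8 and the genes named for contractile nuclei, and all genes read over all kept nuclei, were chosen after values were seen.

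Members and lists were chosen with earlier results of these data known. In the cortex, same-numbered mice deviated together (r = 0.212 to 0.762 over genes, above 0.1 in 6 of 6 pairs). The fit over all kept cortical nuclei with the replicate block called 405 genes, against 50. Each library is from 1 mouse, so p-values measure the spread between mice. Gene positions are from GENCODE M21. Some genes that met the rule for named genes are not reported here.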

Additional observations from a re-analysis of the deposited data

Results flagged for a closer look

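In the cortex, control mouse 5 stood apart from the other 5 controls. Its mural share was 0.171% of kept nuclei, with 0.0355% in the next library, its ratio was 82.6 mural per 100 endothelial nuclei, with 16.7 in the next, and its share of mural nuclei with fewer than 2 contractile UMIs was 0.171%. Among mutants, cortical library 5 had 15.8 mural per 100 endothelial nuclei, with 5.26 in the next, and was the only one with a contractile mural nucleus, 0.00948% of its kept nuclei, with 0 in the others. Both libraries are among the 5 deeper cortical ones, and the part of depth in these values was not tested. A sample far from its group was looked for in 30 groups and found in 5, all of them these same libraries. Most cortical libraries held no mural nucleus and several of the values rest on the same nuclei. A chance rate of about 1 in 20 therefore does not apply.

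In percentage points the genotype difference of the mural share was larger in the deep brain than in the cortex, by -0.138 (exact permutation test, p = 0.00433). Most cortical libraries had a share of 0, so this largely repeats the deep brain difference. As a fold of means the genotype difference was 4.41 in the deep brain and 4.83 in the cortex. Thinned to 1000 UMIs per nucleus and called from 2 marker UMIs, the difference between regions was 0.00509 points (p = 0.905, exact permutation test). The parts of depth, threshold and the limits on other cell classes in this change cannot be told apart.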

How the results depend on the processing

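Of 527 alternative values, 464 kept their direction and their side of the threshold, or stayed within the limits set for a count or value. The deep brain mural share and ratio did so in all 21 and 19 alternatives, with differences of -0.108 to -0.173 points for the share, whose fold ran from 1.67 (thinned) to 5.71 (none of the other-class genes) over the definitions. Paired by replicate number (replicate block), the deep brain share had p = 0.03125 (exact permutation test), the smallest that 6 pairs allow. Numbers did not pair deep brain libraries (r = -0.129 to 0.266 over genes, above 0.1 in 3 of 6 pairs, and 2 best with their own number).

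The cortical share passed when nuclei were thinned to 1000 UMIs and called with at least 2 marker UMIs (-0.119 points, exact permutation test, p = 0.00649). Thinned in the same way, the genotype difference between regions turned its sign and lost its call (0.00509 points in place of -0.138, p = 0.905, exact permutation test, added after seeing the data). Leaving out 1 library gave -0.0342 to 5.56e-05 points for the share and -16.4 to 0.175 for the ratio to endothelial nuclei, reversed without control 5. The endothelial share difference ranged from -0.00167, reversed without control 1, to 0.0645 points. The contractile share was 13.0 points with at least 3 marker UMIs and 40.0 with at least 1 contractile UMI, both called. With 1 library left out it ranged from 22.0 to 34.5 points and lost its call without any 1 mutant, where 2 against 6 libraries cannot go below p = 0.0714 in an exact test, and with the replicate block it was 28.9 points (exact permutation test, p = 0.25, the smallest for 3 pairs). UMIs per mural nucleus differed by 369 with means (p = 0.370) and by 620 in the stricter set (p = 0.130), both by exact permutation tests.

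Genes called within mural nuclei were 8 without the expression filter, 42 with at least 3 marker UMIs and 0 to 2 with a library left out, the 2 (mt-Atp8 and mt-Co3) without control 2. With at least 3 marker UMIs Abcc9, Dlc1 and Ebf1 were called lower (log2 fold changes of -1.70, -1.61 and -1.41). Most nuclei that this setting added held no UMI of the 10 outside pericyte genes. Over all kept deep brain nuclei DESeq2 called 959 genes, the replicate block 505, and leaving out 1 library gave 89 to 444. In the cortex DESeq2 called 268, no filter 77, the replicate block 405, a block over age-matched mice 233, and fits short of 1 library 11 to 109. Abcc9 over all kept deep brain nuclei passed in 17 of 17 alternatives, Heyl in 13 and Tbx3os1 in 3. The cause of these changes was not tested. Not run were the gene fit on nuclei with none of the other-class genes (too few mutant libraries) and, but for fits with no minimum number of nuclei, the designed cortical, region and interaction fits. Without a minimum these called 2 of 85, 0 of 95 and 0 of 95 genes (edgeR; 8, 3 and 12 at an unadjusted p below 0.05). The 185 nuclei limit what the gene tests could detect.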
